A study of Mus musculus with 4 samples.

Results

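The genes described here are 39 genes that cells transcribe in response to type I interferon, listed by symbol and followed through the immune cell lineages of a mouse melanoma. The list was matched by symbol to the gene tables of the deposited matrices. It found 37 genes among the 32285 of the CD45 sort and 38 among the 31053 of the TCRb sort, and 37 genes were in both. *Mx1* was not analysed here in the CD45 sort, and *Mx2* was not analysed in either sort. Type I interferons are secreted cytokines, mainly interferon-beta and the interferon-alphas, that bind a shared receptor made of IFNAR1 and IFNAR2. The receptor kinases JAK1 and TYK2 activate a complex holding STAT2 and IRF9, which binds the interferon-stimulated response element in promoters. The genes it switches on encode sensors of foreign RNA and DNA, proteins that block viral translation and replication, and parts of the interferon pathway itself. In tumors, plasmacytoid dendritic cells, conventional dendritic cells and macrophages are known sources of type I interferon, and nearly all nucleated cells can respond to it.

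The study asked which immune cells take up cytoplasm from tumor cells. Wild-type C57BL/6 mice carried subcutaneous tumors of a B16-F10 melanoma line with a doxycycline-inducible ZsGreen (ZsG) transgene, a cytoplasmic fluorescent protein, so that ZsG+ immune cells carried a protein made by tumor cells. Tumors were taken 8 days after injection from mice given doxycycline in the drinking water, and were digested with collagenase D and DNase. All 4 groups shared the tumor line, a single clone, and the treatment. They were sorted as CD45+ ZsG-, CD45+ ZsG+, TCRb+ ZsG- and TCRb+ ZsG+ cells, each 1 droplet-based 3' single-cell library from an unstated number of mice. In the paper the TCRb sort followed the CD45 sort. The counts of the sorts also came from different versions of the counting software (7.0.0 and 6.1.2) and listed different numbers of genes. Levels may therefore differ between the sorts by more than the cells sorted. With 1 library in each group there were no replicates, so no test of a difference between libraries was possible and none is given. Values are unique molecular identifiers (UMIs) of a gene summed over the cells of a class and given per 1000000 UMIs of the same cells (CPM). Intervals are exact 95% intervals that cover counting error only, and UMI counts of different genes were not scaled by length.

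The 4 libraries held 1136 to 5437 barcodes and 10030971 to 47537541 UMIs in the ZsG- libraries, and 2396 to 5168 barcodes and 22100220 to 56510578 UMIs in the ZsG+ libraries. After filters on genes and mitochondrial UMIs, 4698 ZsG- and 4124 ZsG+ cells of the CD45 sort and 948 ZsG- and 1879 ZsG+ cells of the TCRb sort remained. The study further removed cells of the TCRb sort with under 0.055% of UMIs from *Cd3d*, *Cd3e* and *Cd3g*. That step was not applied here: it would have left 1439 of the 2827 cells, with 1252 of 1257 T cells and none of the pDCs, monocytes, macrophages or cDCs. Cells were put into classes by the number of marker genes with a UMI, with none of the 39 genes among the markers. The CD45 ZsG- library was mostly NK or innate lymphoid cells (2433) and T cells (1198), with 223 monocytes, 196 plasmacytoid dendritic cells (pDCs), 36 conventional dendritic cells (cDCs) and 1 macrophage. The CD45 ZsG+ library held 1962 macrophages, 735 monocytes, 130 cDCs, 121 T cells, 77 NK cells and 16 pDCs. Macrophages could therefore not be compared between the gates in that sort. The TCRb sort went against its label: beside 599 ZsG- and 658 ZsG+ T cells it held 120 and 592 pDCs, 36 and 131 macrophages and 31 and 72 monocytes, and *Trac*, which encodes the constant part of the T cell receptor alpha chain, was at 2.62 CPM in its ZsG+ pDCs against 712 CPM in its ZsG+ T cells. The labels also contradict each other on which of its barcode suffixes was ZsG+, and the larger library was taken as ZsG+, so every direction between the gates of the TCRb sort turns with the opposite assignment. *Foxp3*+ cells here are T cells with a UMI of *Foxp3* and none of *Cd8a* or *Cd8b1*, and include regulatory T cells. With the assignment used, they were 31 of 599 ZsG- T cells (5.18%, 3.54 to 7.27) and 100 of 658 ZsG+ T cells (15.2%, 12.5 to 18.2). In the CD45 sort, whose labels do not conflict, they were 42 of 1198 (3.51%, 2.54 to 4.71) and 15 of 121 (12.4%, 7.11 to 19.6), so the share was higher in the ZsG+ library there too. The paper, by its own classification, reports regulatory T cells as enriched among its ZsG+ T cells, the same direction as with the assignment used. The pDCs went the other way. They were 196 ZsG- and 16 ZsG+ cells in the CD45 sort, but 120 and 592 in the TCRb sort with the assignment used. The paper describes the pDCs of its CD45 sort as ZsG-negative. Which assignment is right was not settled here. The paired libraries shared 6 barcodes in the CD45 sort and 1 in the TCRb sort.

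The response element was looked for in the promoters, because it is the sequence by which these genes answer interferon. RefSeq promoters of build GRCm38.p6, 300 bases long from 250 before to 50 after a transcription start, were found for 29 of the 39 genes. Its core, GAAA repeated after a gap of any 2 bases, or the reverse complement with TTTC in place of GAAA, stood in the promoter of 15 of the 29 genes (51.7%), against 1079 of 27025 genes with a promoter in the table (3.99%). Overlapping matches were counted as separate. The windows below come from genes that the results turn on, with each match in capitals and 20 bases on either side, written 5' to 3' on the strand of the gene.
*Isg15*, chr4:156200855-156200916, minus strand: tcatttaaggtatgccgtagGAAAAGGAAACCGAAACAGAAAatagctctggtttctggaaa
*Ifit1*, chr19:34640765-34640833, plus strand: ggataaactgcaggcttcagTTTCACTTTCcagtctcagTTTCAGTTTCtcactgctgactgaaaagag
*Ifit3*, chr19:34583353-34583436, plus strand: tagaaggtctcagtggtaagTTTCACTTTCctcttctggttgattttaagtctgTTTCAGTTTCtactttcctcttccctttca
*Ifit3b*, chr19:34607749-34607832, plus strand: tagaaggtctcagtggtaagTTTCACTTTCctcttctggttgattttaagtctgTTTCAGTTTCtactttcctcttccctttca
*Rsad2*, chr12:26456543-26456592, minus strand: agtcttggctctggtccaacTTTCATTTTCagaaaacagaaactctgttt
*Bst2*, chr8:71537567-71537622, minus strand: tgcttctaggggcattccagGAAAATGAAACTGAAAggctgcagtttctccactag
*Ifi203*, chr1:173942498-173942547, minus strand: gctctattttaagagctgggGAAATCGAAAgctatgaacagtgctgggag
*Stat2*, chr10:128270256-128270305, plus strand: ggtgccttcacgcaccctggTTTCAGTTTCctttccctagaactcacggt

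The *Isg15* window held 3 overlapping matches, between 78 and 66 bases before the start. The windows of *Ifit3* and its neighbor *Ifit3b* were identical letter for letter, while the whole promoters were identical at 75% of 268 aligned bases. Only promoters were compared, not transcripts. Whether reads of related neighboring genes were lost or counted for the wrong copy was not tested. Values of *Ifit3* and *Ifit3b*, *Oas1a* and *Oas1g*, *Trim30a* and *Trim30c*, and the *Ifi203*, *Ifi204* and *Ifi209* group are therefore uncertain as to the copy. No match in these 300 bases was found for *Irf7*, *Ifit2*, *Oasl1*, *Oasl2* and 10 others, which says only that these letters are not in this window. Genes with and without a match were alike in where they were highest: 12 of 15 with a match and 12 of 14 without were highest in monocytes of the CD45 sort. The 39 genes lie on 15 chromosomes as far as the annotation placed them, with 6 on chromosome 5 and 5 on chromosome 19.

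Taken as whole classes, myeloid cells and pDCs had more transcripts of the interferon genes than lymphoid cells in the CD45 sort. There the 37 genes summed to 13047 CPM (12953 to 13142) in ZsG+ monocytes, 8280 CPM (8246 to 8315) in ZsG+ macrophages, 8261 CPM (8125 to 8400) in ZsG- pDCs and 4384 CPM (4284 to 4486) in ZsG+ cDCs. They summed to 1971 CPM (1951 to 1992) in ZsG- T cells and 1573 CPM (1553 to 1594) in ZsG- NK cells. T cell subsets of this sort differed. In the ZsG- gate, 881 CD8 T cells were at 1712 CPM. There 47 CD4 T cells without *Foxp3* were at 4015 CPM and 42 *Foxp3*+ T cells at 4220 CPM, near the level of ZsG+ cDCs. In the ZsG+ gate the levels were 1562 CPM (89 cells), 4590 CPM (5 cells) and 2613 CPM (15 cells). The mean of per-cell CPM was 3128 in all ZsG- T cells and 4730 in ZsG+ cDCs. The order of the whole classes was thus ZsG+ monocytes first, macrophages and pDCs next with overlapping intervals, then cDCs, T cells and NK cells. Class and gate were mixed in this order. ZsG- monocytes were at 8330 CPM (8201 to 8462), an interval that overlapped those of ZsG- pDCs and ZsG+ macrophages. On the log2 scale, ZsG+ monocytes were above ZsG- NK cells by 3.05. Of the 37 genes, 32 had their highest level in monocytes, and for 30 of these the interval stood clear of the next class. The other 5 were highest in pDCs: *Bst2*, *Stat2*, *Irf9*, *Ifi44* and *Trim30a*. For only 3 of these 5 did the interval stand clear of the next class. The lowest level was in T cells for 16 genes, in NK cells for 10 and in pDCs for 11. For these levels each class was taken from the CD45 library in which it had more cells. Monocytes, macrophages and cDCs were thus taken from the ZsG+ library, and pDCs, T cells and NK cells from the ZsG- library. In the ZsG+ library of the TCRb sort, monocytes were again highest for 32 of 37 genes. The share of all genes that were highest in monocytes was not counted in either sort, so these counts have no background beside them. The sums of the lower classes were not in the same order in that sort. Its T cells were at 5874 CPM in the ZsG- and 4835 CPM in the ZsG+ library, beside 7719 and 5119 CPM in 7 and 45 cDCs and 6652 and 8493 CPM in macrophages. Among them, CD4 T cells without *Foxp3* were at 8878 and 8701 CPM and *Foxp3*+ T cells at 9143 and 8185 CPM, levels near or above those of macrophages.

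**Figure D1:**
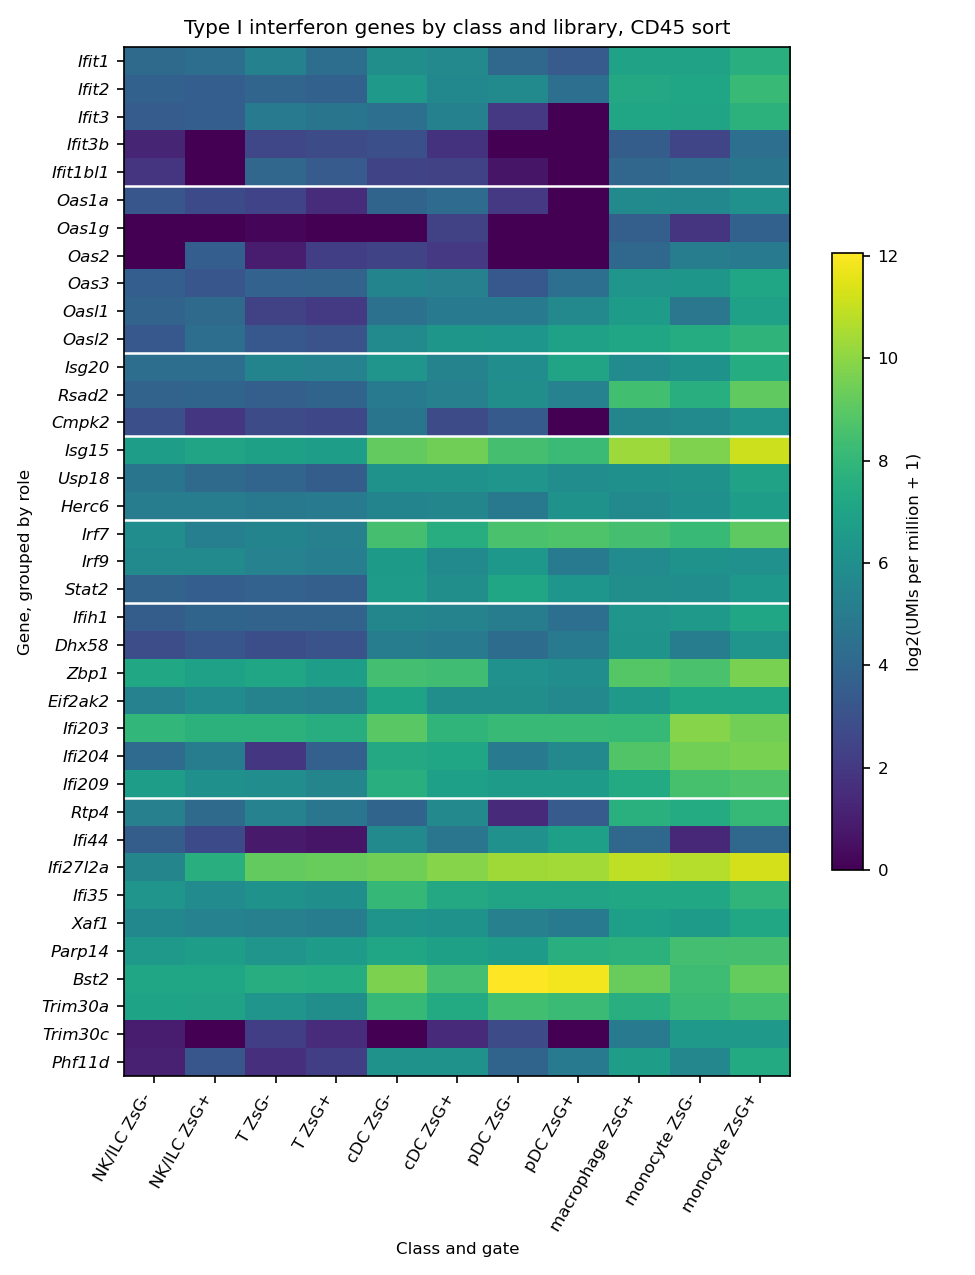
Level of each of the 37 genes (rows, grouped by role) in each class and gate of the CD45 sort (columns), as log2(CPM + 1), 1 library a gate. Monocytes and macrophages are bright across most rows. pDCs are brightest for *Bst2*, and also bright for genes such as *Ifi27l2a*, *Irf7*, *Isg15* and *Trim30a*. NK and T cells are dark except for a few genes such as *Ifi27l2a* in T cells.

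The pDC sum was made by few genes. *Bst2*, which encodes tetherin, a membrane protein that holds budding virus at the cell surface and is the antigen by which mouse pDCs are often sorted, made 51.7% of the summed UMIs in ZsG- pDCs, at 4271 CPM. It stood at 591 CPM in ZsG+ monocytes and 610 CPM in ZsG+ macrophages. Without *Bst2* and *Irf7*, both of which pDCs are known to carry at rest, the sum was 3610 CPM in ZsG- pDCs, 7313 CPM in ZsG+ macrophages and 11925 CPM in ZsG+ monocytes. Relative to macrophages, the pDC sum went from -0.00 on the log2 scale with all 37 genes to -1.02 without these genes. The genes of the IFIT family show the same contrast: *Ifit3* had 2.97 CPM in ZsG- pDCs and none of its UMIs fell in the 16 ZsG+ pDCs, against 214 CPM in ZsG+ monocytes. In T cells, *Ifi27l2a*, an interferon-responsive gene of a mitochondrial protein family, made 28.7% of the sum in the ZsG- library.

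**Figure D2:**
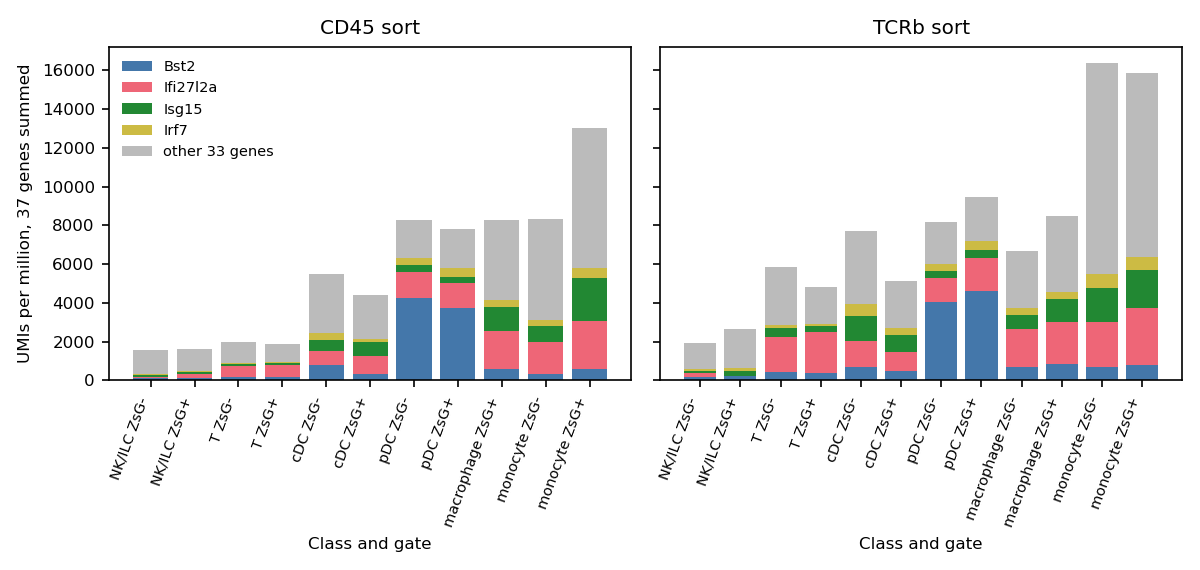
Summed CPM of the 37 genes in each class and gate, with the CD45 sort on the left and the TCRb sort on the right, split into *Bst2*, *Ifi27l2a*, *Isg15*, *Irf7* and the other 33 genes. *Bst2* fills about as much of the pDC bars as all other genes together, and the bars of monocytes are the tallest in both sorts.

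Sensors of foreign nucleic acid, a group of 7 genes, had in monocytes and macrophages the highest sum after the mixed group of other effectors. They were at 3100 CPM in ZsG+ monocytes, 1602 CPM in ZsG+ macrophages, 599 CPM in ZsG- pDCs, 585 CPM in ZsG- NK cells and 472 CPM in ZsG- T cells. The ISG15 system, with only 3 genes, was at 2450 CPM in ZsG+ monocytes and 1359 CPM in ZsG+ macrophages, so this rank depends on group size. *Zbp1*, which encodes a sensor of Z-form nucleic acid that can start necroptosis, was at 797 CPM in ZsG+ monocytes, 477 CPM in ZsG+ macrophages, 151 CPM in ZsG- NK cells and 67.1 CPM in ZsG- pDCs. *Ifih1*, which encodes the double-stranded RNA sensor MDA5, was at 138 CPM in ZsG+ monocytes and 10.7 CPM in ZsG- NK cells. *Dhx58*, encoding the related helicase LGP2, differed little between ZsG+ monocytes and ZsG+ macrophages, at 76.2 and 74.7 CPM. *Eif2ak2*, which encodes the kinase PKR that halts translation on double-stranded RNA, ran from 39.1 CPM in ZsG- NK cells to 141 CPM in ZsG- monocytes. The DNA-binding IFI200 genes parted by lineage. *Ifi204* was at 803 CPM in ZsG+ monocytes but at 2.76 CPM in ZsG- T cells, whereas *Ifi203* was at 717 CPM in ZsG+ monocytes and still at 215 CPM in ZsG- T cells and 255 CPM in ZsG- NK cells.

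Transcription factors of the pathway were shared by myeloid cells and pDCs. *Irf7*, the factor that amplifies interferon production, was at 531 CPM in ZsG+ monocytes, 380 CPM in ZsG- pDCs, 358 CPM in ZsG+ macrophages, 59.9 CPM in ZsG- NK cells and 42.3 CPM in ZsG- T cells. *Stat2*, a subunit of the interferon-activated complex, was highest in ZsG- pDCs at 141 CPM, with 85.4 CPM in ZsG+ monocytes and 62.0 CPM in ZsG+ macrophages. *Irf9*, the DNA-binding subunit of that complex, ran from 39.5 CPM in ZsG- T cells to 84.4 CPM in ZsG- pDCs over the same classes, a narrower range than that of *Irf7* or *Stat2*.

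The IFIT genes, whose proteins bind viral RNA ends and block its translation, were together at 734 CPM in ZsG+ monocytes, 441 CPM in ZsG+ macrophages, 103 CPM in ZsG- T cells, 71.9 CPM in ZsG- pDCs and 43.2 CPM in ZsG- NK cells. *Ifit2* led the family in ZsG+ monocytes at 280 CPM, followed by *Ifit3* at 214 CPM and *Ifit1* at 195 CPM. In ZsG- T cells the order was different, with *Ifit1* at 38.2 CPM, *Ifit3* at 30.9 CPM and *Ifit2* at 14.1 CPM. *Ifit1bl1*, a gene of the same cluster, was at 14.7 CPM in ZsG- T cells and 14.6 CPM in ZsG+ macrophages, and in the TCRb ZsG+ library it was the only one of the 37 genes highest in T cells.

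The OAS genes encode enzymes that make a nucleotide signal for RNA decay, or inactive relatives of them. They were at 590 CPM in ZsG+ monocytes and 397 CPM in ZsG+ macrophages, and at 31.5 CPM in ZsG- T cells. *Oasl2* had the highest level of the family, at 227 CPM in ZsG+ monocytes and 142 CPM in ZsG+ macrophages. *Oas3* was at 134 CPM in ZsG+ monocytes, 76.2 CPM in ZsG+ macrophages and 8.91 CPM in ZsG- pDCs. *Oas2* and *Oas1g* had no UMI in 2433 ZsG- NK cells or in 196 ZsG- pDCs.

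*Isg15*, a ubiquitin-like protein that is conjugated to other proteins in response to interferon, was the gene with the second-highest level in ZsG+ monocytes after *Ifi27l2a*. Its level was 2224 CPM in ZsG+ monocytes, 1241 CPM in ZsG+ macrophages, 707 CPM in ZsG+ cDCs, 358 CPM in ZsG- pDCs, 114 CPM in ZsG- T cells and 107 CPM in ZsG- NK cells. *Usp18*, the protease that removes ISG15 and dampens receptor signaling, was at 121 CPM in ZsG+ monocytes and 77.8 CPM in ZsG- pDCs. *Herc6*, the mouse ligase that attaches ISG15, was at 106 CPM in ZsG+ monocytes and 27.9 CPM in ZsG- pDCs.

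Among the enzymes acting on nucleotides, *Rsad2*, which encodes viperin, a maker of a chain-terminating nucleotide, was at 552 CPM in ZsG+ monocytes, 340 CPM in ZsG+ macrophages, 60.6 CPM in ZsG- pDCs, 36.9 CPM in ZsG+ cDCs, 13.4 CPM in ZsG- NK cells and 11.4 CPM in ZsG- T cells. Its neighbor *Cmpk2*, a mitochondrial nucleotide kinase, was lower but had the same order at its top, with 76.1 CPM in ZsG+ monocytes and 44.7 CPM in ZsG+ macrophages. *Isg20*, an RNA exonuclease, stood apart from macrophages, with 176 CPM in ZsG+ monocytes and 54.9 CPM in ZsG+ macrophages. The GTPase *Mx1* was listed only in the TCRb sort, at 135 CPM in ZsG+ monocytes, 51.7 CPM in ZsG+ pDCs, 43.6 CPM in ZsG+ macrophages and 21.8 CPM in ZsG+ T cells.

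The remaining effectors had mixed profiles. *Ifi27l2a* was at 2473 CPM in ZsG+ monocytes, 1939 CPM in ZsG+ macrophages, 1309 CPM in ZsG- pDCs, 566 CPM in ZsG- T cells and 44.2 CPM in ZsG- NK cells, so that the lymphoid classes stood far apart. *Rtp4*, a chaperone-like gene, was at 269 CPM in ZsG+ monocytes and 1.78 CPM in ZsG- pDCs, which places pDCs at its foot. *Ifi44* ran the other way, with 67.7 CPM in ZsG- pDCs, 26.0 CPM in ZsG+ cDCs and 15.2 CPM in ZsG+ monocytes. *Trim30a*, an interferon-induced ubiquitin ligase, was nearly level between ZsG- pDCs and ZsG+ monocytes, at 336 and 334 CPM. *Parp14*, an ADP-ribosyl transferase, was at 363 CPM in ZsG+ monocytes and 77.1 CPM in ZsG- T cells. *Phf11d*, *Xaf1* and *Ifi35* were highest in ZsG+ monocytes, at 166, 146 and 237 CPM.

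At equal depth the levels were also a matter of how many cells showed a gene. After each cell of the CD45 sort was thinned to 2000 UMIs, *Bst2* was seen in 100% of pDCs of both gates and in 19.6% of ZsG- NK cells. *Isg15* was seen in 85.4% of ZsG+ monocytes, 54.3% of ZsG- monocytes, 72.8% of ZsG+ macrophages, 28.6% of ZsG- pDCs and 14.4% of ZsG- NK cells. *Rsad2* was seen in 32.8% of ZsG+ monocytes, 11.7% of ZsG- monocytes, 27.7% of ZsG+ macrophages and 2.02% of ZsG- NK cells, so most cells of every class showed none of it at this depth. No class is known to lack these genes altogether, so no background share could be set beside them.

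ZsG+ monocytes were above ZsG+ macrophages for nearly the whole list. In the CD45 sort the log2 ratio of the sums was 0.66 (0.64 to 0.67), and 35 of 37 genes were higher in monocytes, with a median of 0.72 against -0.12 over the 11305 genes with at least 20 UMIs. At least 2-fold higher were 5 genes: *Isg20* (log2 ratio 1.68), *Trim30c* (1.63), *Ifi203* (1.40), *Ifi209* (1.37) and *Herc6* (1.03). Over all genes, 3.75% were at least 2-fold higher in monocytes and 9.07% at least 2-fold lower. *Bst2* (-0.05), *Ifi44* (-0.04) and *Dhx58* (0.03) were level between these cells within their counting intervals. The ratio of the sums in the TCRb sort was 0.90, and 21 of 38 genes were at least 2-fold higher in monocytes, against 7.16% of all genes higher and 11.7% lower. Both classes were defined by overlapping marker lists, and monocytes of tumors are known to mature into macrophages.

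Within ZsG+ myeloid cells the interferon genes were lower where more macrophage markers were seen. Counting how many of 10 macrophage markers (among them the complement genes *C1qa*, *C1qb* and *C1qc*) had a UMI, the sum in the CD45 sort was 12343 CPM in 525 cells with 2 to 3 markers, 10891 CPM with 4 to 5, 9754 CPM with 6 to 7 and 7555 CPM in 971 cells with 8 to 10. The same steps gave 16101, 13178, 11639 and 7304 CPM in the TCRb sort. The 105 cells of the CD45 sort with 0 to 1 markers were at 9338 CPM. Cells with more markers also had more UMIs, with medians from 6869 UMIs at 2 to 3 markers to 14589 at 8 to 10 in the CD45 sort, and the part of depth in this order was not tested. *Rsad2* went from 541 to 266 CPM and *Ifi203* from 669 to 242 CPM over these steps, while *Bst2* went from 569 to 626 CPM and *Dhx58* from 73.9 to 76.4 CPM.

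**Figure D3:**
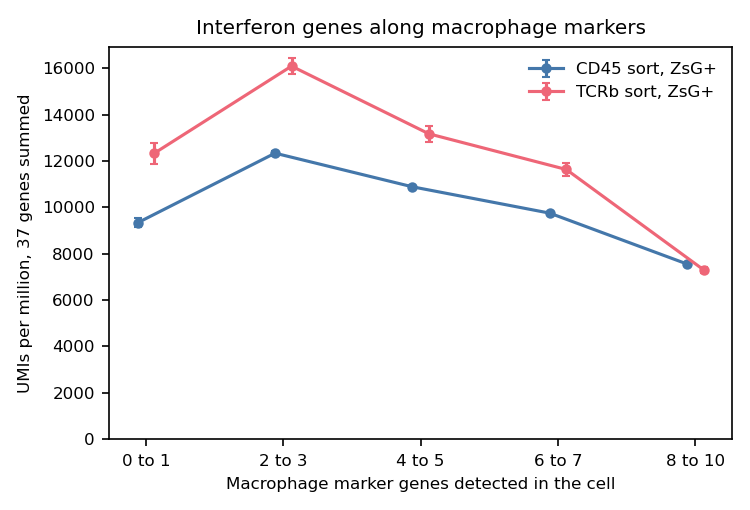
Summed CPM of the 37 genes (vertical axis) in ZsG+ myeloid cells with 0 to 1, 2 to 3, 4 to 5, 6 to 7 or 8 to 10 of the 10 macrophage marker genes detected (horizontal axis), for the CD45 sort and the TCRb sort, with exact 95% counting intervals. Both lines peak at 2 to 3 markers and end lowest at 8 to 10, at 7555 and 7304 CPM.

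Macrophages differed among themselves by state. Cycling macrophages, marked by genes such as *Top2a* and *Mki67*, had 5871 CPM in 153 cells, against 8767 CPM in 1440 macrophages that were neither cycling nor hypoxic, a log2 ratio of the sums of -0.58 (-0.60 to -0.56). *Isg15* was at 788 against 1332 CPM (-0.76) and *Rsad2* at 176 against 335 CPM (-0.93). Of 37 genes, 5 were at least 2-fold lower in cycling macrophages (*Ifit1bl1*, *Ifit3b*, *Ifit2*, *Isg20* and *Ifit3*), against 2.03% of all genes lower and 8.11% higher. Cycling cells had a median of 23704 UMIs and the others 11383, and the part of that difference was not tested. Macrophages with hypoxia genes were at 8309 CPM in 369 cells. Their *Rsad2* was higher than in the other macrophages, at 494 against 335 CPM (log2 ratio 0.56, 0.49 to 0.63), while *Trim30c* was lower, at 22.3 against 33.2 CPM (-0.57, -0.90 to -0.27).

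Among the 5 classes that could be compared between the gates of the CD45 sort, monocytes had the largest difference, with higher levels in ZsG+ cells. The sum was 8330 CPM in 223 ZsG- monocytes and 13047 CPM in 735 ZsG+ monocytes, a log2 ratio of 0.65 (0.62 to 0.67). Of 37 genes, 32 were higher in ZsG+ monocytes, with a median log2 ratio of 0.66 against -0.06 over 9195 genes. At least 2-fold higher were 11 genes and none was 2-fold lower, against 8.74% of all genes higher and 8.89% lower. *Isg15* went from 841 to 2224 CPM (1.40, 1.33 to 1.48), *Rsad2* from 187 to 552 CPM (1.56, 1.40 to 1.72) and *Oasl1*, a repressor of *Irf7* translation, from 26.6 to 120 CPM (2.16, 1.76 to 2.62). *Phf11d* (1.84) and *Zbp1* (1.04) were also more than 2-fold higher. *Ifi44* had 3 UMIs in ZsG- and 85 UMIs in ZsG+ monocytes, a ratio of 3.04 with an interval from 1.66 to 5.56. *Oas1g* had 5 and 69 UMIs (2.09, 0.93 to 3.88).

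Not every interferon gene followed. *Ifi203* was lower in ZsG+ monocytes, at 717 against 932 CPM (-0.38, -0.46 to -0.30), and *Ifi204*, *Parp14*, *Trim30c*, *Eif2ak2*, *Irf9* and *Oas2* had log2 ratios between -0.19 and 0.15. The gates differed in the kinds of monocyte they held: 93 of 223 ZsG- monocytes were non-classical, against 22 of 735 ZsG+ monocytes. Within classical monocytes alone the sum was 9100 CPM in 130 ZsG- and 13126 CPM in 713 ZsG+ cells, a log2 ratio of 0.53 (0.50 to 0.56), with 9 genes at least 2-fold higher and none lower, against 9.45% and 7.85% of all genes. Within non-classical monocytes it was 0.51 (0.42 to 0.59). These separations were chosen after the data had been seen. ZsG+ monocytes also held more macrophage transcripts: *C1qa*, *C1qb* and *C1qc* together were at 326 CPM against 26.0 CPM, and *Lyz2* was lower, at 12731 against 23627 CPM. The part of the macrophage transcripts in the gate difference was not tested.

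**Figure D4:**
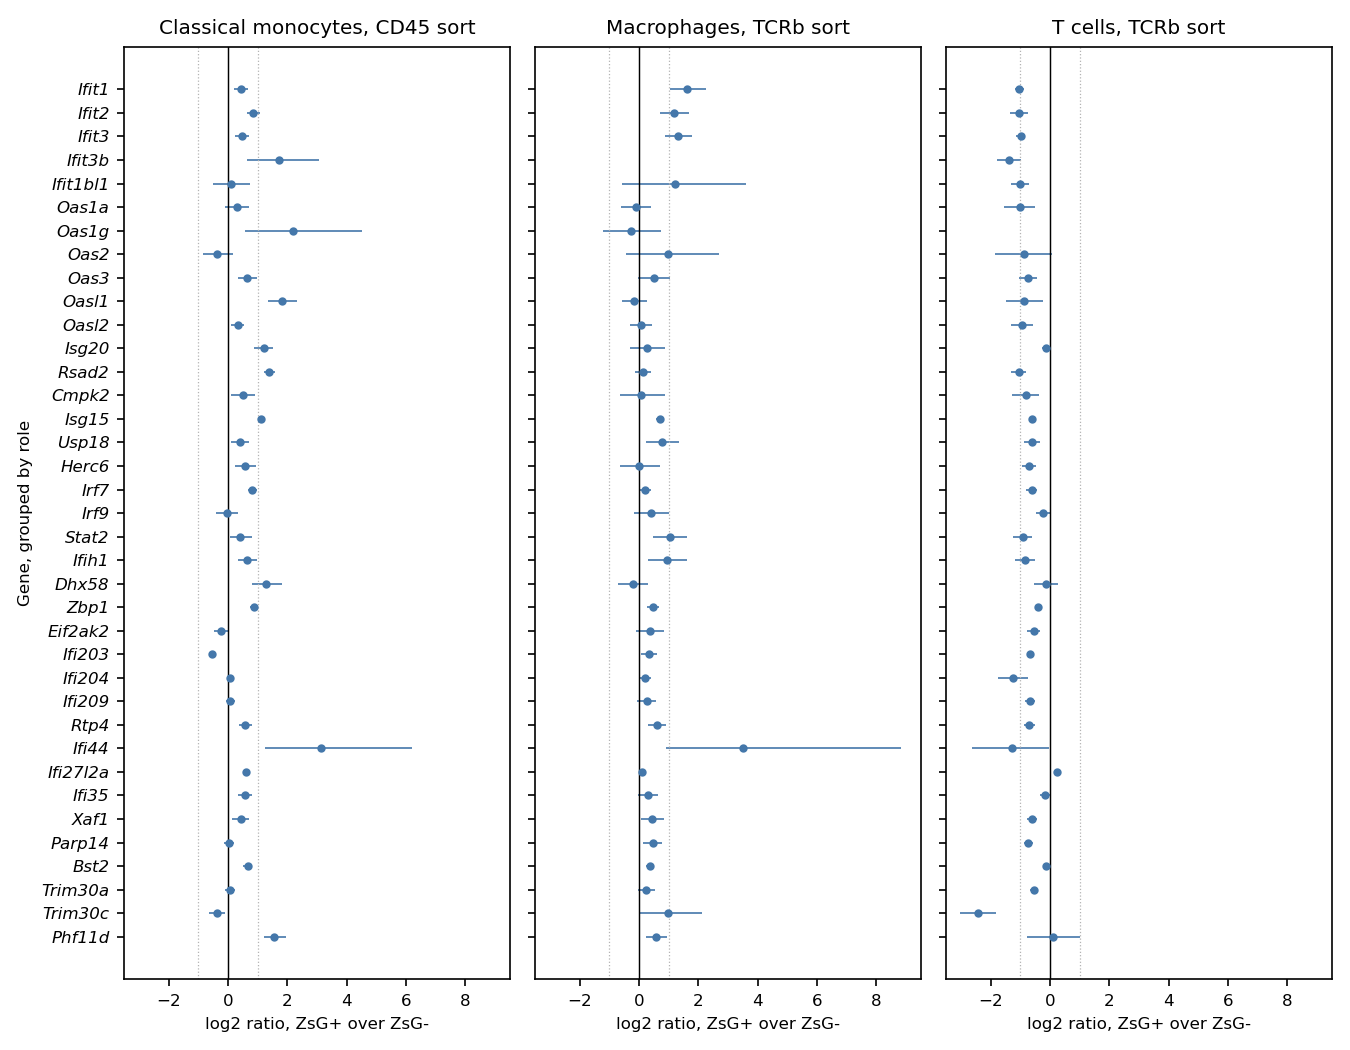
Log2 ratio of CPM, ZsG+ over ZsG-, for each of the 37 genes (rows, grouped by role) in classical monocytes of the CD45 sort, macrophages of the TCRb sort and T cells of the TCRb sort, with exact 95% counting intervals and dotted lines at 2-fold. Points are plain ratios without the 0.5 added elsewhere, and genes with under 20 UMIs or none on 1 side are not drawn. Most points lie right of 0 in the first and second panels, and left of 0 in T cells, where *Ifi27l2a* lies to the right.

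Conventional dendritic cells went the other way in the CD45 sort. Their sum was 5491 CPM in 36 ZsG- cells and 4384 CPM in 130 ZsG+ cells, a log2 ratio of -0.32 (-0.39 to -0.26). Of 32 genes with enough UMIs, 5 were at least 2-fold lower in ZsG+ cDCs and 1 higher, against 6.06% and 8.25% of all genes. *Bst2* was at 809 and 346 CPM (-1.23, -1.42 to -1.03), *Ifi203* at 501 and 233 CPM (-1.11, -1.35 to -0.86) and *Cmpk2* had 11 and 10 UMIs (-2.04, -3.44 to -0.67). *Rtp4* was higher in ZsG+ cDCs, at 50.8 against 13.6 CPM (1.79), and *Isg15* was at 707 against 567 CPM (0.32). After each cell was thinned to 2000 UMIs the ratio of the sums was -0.04, with an interval (-0.21 to 0.14) that held 0. The ratio was -0.16 in 12 ZsG- and 57 ZsG+ cross-presenting DC1, and -0.53 in 13 and 38 DC2. DC2 had more interferon transcripts than DC1 in both gates, 9244 against 3454 CPM in ZsG- and 6380 against 3083 CPM in ZsG+ cells, and mature DCs of the ZsG+ gate were at 4571 CPM.

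In pDCs, NK cells and T cells of the CD45 sort the sums of the gates were close. The paper states that this sort took bright ZsG+ cells, and that most lymphocytes carrying ZsG were sorted as ZsG-. Close sums in NK and T cells here therefore do not compare cells with and without uptake. By flow cytometry the paper found pDCs less bright than monocytes, macrophages and cDCs. Whether the ZsG- pDCs of this sort carried dim ZsG was not tested. For pDCs the sum was 8261 CPM in 196 ZsG- and 7808 CPM in 16 ZsG+ cells, a log2 ratio of -0.08 (-0.19 to 0.02), with 4 of 27 genes at least 2-fold higher and 2 lower against 9.09% and 10.6% of all genes. *Bst2* was at 4271 and 3719 CPM (-0.20, -0.35 to -0.05), and *Isg20* had 101 and 13 UMIs (1.17, 0.16 to 1.96). Only 23 of the 196 ZsG- and 7 of the 16 ZsG+ pDCs had under 5% mitochondrial UMIs, and among those the ratio was -0.62. For NK cells the sum was 1573 and 1603 CPM (0.03, -0.10 to 0.15), with 3 of 34 genes at least 2-fold higher and 1 lower against 9.82% and 6.89%. *Ifi27l2a* was at 44.2 CPM in ZsG- and 185 CPM in ZsG+ NK cells (2.08, 1.68 to 2.43), and *Phf11d* had 17 and 3 UMIs (3.03, 0.44 to 4.64). Macrophage transcripts moved with the gate in the same cells: *Lyz2* was at 25.9 and 272 CPM, and the 3 C1q genes at 3.98 and 269 CPM, in NK cells. For T cells the sum was 1971 and 1875 CPM (-0.07, -0.13 to -0.02), with 2 of 35 genes at least 2-fold higher, *Ifi204* (2.14) and *Oas2* (2.14, from 16 and 6 UMIs), none lower, and a background of 3.34% and 3.5%. The 3 C1q genes were at 4.12 and 105 CPM in these T cells. The part of transcripts from macrophages in the differences within NK, T and pDC classes was not tested.

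In the TCRb sort, T cells of the ZsG+ gate were lower for nearly the whole list. The sum was 5874 CPM in 599 ZsG- and 4835 CPM in 658 ZsG+ T cells, a log2 ratio of -0.28 (-0.30 to -0.26), and the median gene was at -0.74 against 0.04 over 9860 genes. Of 37 genes with enough UMIs 35 were lower, 9 of them at least 2-fold, and none was 2-fold higher, against 1.99% of all genes lower and 3.64% higher. *Rsad2* was at 73.7 and 35.5 CPM (-1.05), *Ifit1* at 189 and 92.1 CPM (-1.04), *Ifit3* at 200 and 101 CPM (-0.99), *Isg15* at 461 and 303 CPM (-0.60) and *Trim30c* at 26.3 and 4.91 CPM (-2.40). *Ifi27l2a* was the exception in size, at 1814 and 2118 CPM (0.22, 0.18 to 0.26). Without *Bst2*, *Irf7* and *Ifi27l2a* the log2 ratio of the sum was -0.64. It was smaller with the mean of per-cell CPM (-0.11) and after thinning to 2000 UMIs (-0.15, -0.19 to -0.11). Among subsets, chosen after the data had been seen, the ratio was -0.44 in CD8 T cells, -0.03 (-0.12 to 0.06) in CD4 T cells without *Foxp3* and -0.16 in *Foxp3*+ T cells. The sorts were deposited as separate tables, and no ratio was taken between them.

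Myeloid cells of the TCRb sort were few. For macrophages, which the CD45 sort could not compare, the sum was 6652 CPM in 36 ZsG- and 8493 CPM in 131 ZsG+ cells, a log2 ratio of 0.35 (0.31 to 0.40). At least 2-fold higher in ZsG+ macrophages were 7 of 38 genes, and none was 2-fold lower, against 3.84% and 1.59% of all genes. They included most of the IFIT family: *Ifit1* was at 35.6 and 110 CPM (1.61, 1.05 to 2.26), *Ifit3* at 62.0 and 154 CPM (1.30), *Ifit2* at 56.7 and 128 CPM (1.15), and *Ifit3b* had 0 and 35 UMIs. *Isg15* was at 728 and 1179 CPM (0.69) and *Rsad2* at 202 and 219 CPM (0.12, -0.15 to 0.39). The macrophage states did not all share this direction. The sum was 6431 CPM in 29 ZsG- and 9930 CPM in 97 ZsG+ macrophages that were neither hypoxic nor cycling, and 9279 CPM in 6 ZsG- and 6665 CPM in 25 ZsG+ hypoxic macrophages, in which the IFIT genes were at 527 and 207 CPM. Monocytes of this sort were close between the gates, with 16383 CPM in 31 ZsG- and 15840 CPM in 72 ZsG+ cells (-0.05, -0.10 to -0.00) and no gene of 35 past 2-fold, against 3.26% of all genes higher and 2.41% lower. Classical monocytes alone were at 15966 CPM in 29 ZsG- and 16217 CPM in 66 ZsG+ cells, so the direction was not the same as over all monocytes. The 2 non-classical ZsG- cells were at 21568 CPM. Over all monocytes the ratio was thus 0.65 in the CD45 sort and -0.05 in the TCRb sort. The sorts held different shares of non-classical cells. In classical monocytes alone the gates were at 9100 (ZsG-) and 13126 CPM (ZsG+) in the CD45 sort, beside the 15966 and 16217 CPM here. The paper also states that the CD45 sort took bright ZsG+ cells, so the gates of the sorts may not be alike. The difference between the sorts was not tested. pDCs were at 8169 CPM in 120 ZsG- and 9450 CPM in 592 ZsG+ cells, a ratio of 0.21 (0.18 to 0.24), with *Ifi27l2a* (0.48), *Irf7* (0.40) and *Bst2* (0.18) higher. Of 33 genes in pDCs 1 was past 2-fold, *Oas1a* with 1 and 23 UMIs (1.75, -0.32 to 7.67), against 2.45% of all genes higher and 1.87% lower. All these directions rest on the assignment of the suffixes described above.

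Interferon-high cells were defined on equal depth. Each cell was thinned to 2000 UMIs, cells with fewer were left out, and a cell with UMIs of at least 14 of the 37 genes was called interferon-high, the smallest number reached by at most 10% of the cells of the CD45 sort. It took in 8.76% of them, and a limit 1 gene lower would have taken in 11.3%. In ZsG+ monocytes 241 of 735 cells were interferon-high (32.8%, 29.4 to 36.3), against 31 of 223 ZsG- monocytes (13.9%, 9.64 to 19.1). In ZsG+ macrophages 279 of 1960 cells passed (14.2%, 12.7 to 15.9), in ZsG- pDCs 9 of 196 (4.59%, 2.12 to 8.54) and in ZsG+ cDCs 5 of 130 (3.85%, 1.26 to 8.75). NK cells were almost free of them, with 16 of 2429 ZsG- cells (0.659%) and 0 of 76 ZsG+ cells, and 25 of 1198 ZsG- T cells passed (2.09%). Of all 772 interferon-high cells, 36.1% were macrophages, 35.2% monocytes and 17.6% cells without a class. Of 271 in the TCRb sort, 39.9% were T cells, 18.8% monocytes, 11.4% pDCs and 9.59% macrophages.

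At the limit itself stood 36 ZsG+ monocytes with exactly 14 genes, and 49 with 13 lay just outside. For ZsG+ macrophages these numbers were 67 and 94. The median ZsG+ monocyte showed 11 genes after thinning, the median ZsG+ macrophage 8, the median ZsG- pDC 5 and the median ZsG- NK cell 2. Among macrophages, 3.92% of cycling and 13.6% of hypoxic cells passed. Without thinning, the order of monocytes and macrophages turned: 17.4% of ZsG+ monocytes and 22.6% of ZsG+ macrophages passed, with medians of 6846 and 11676 UMIs a cell. In classical monocytes the shares were 17.7% of ZsG- and 33.1% of ZsG+ cells. With the same limit in the TCRb sort, 17 of 31 ZsG- and 34 of 72 ZsG+ monocytes passed (54.8% and 47.2%), 2 of 36 and 24 of 127 macrophages (5.56% and 18.9%), 3 of 119 and 28 of 590 pDCs (2.52% and 4.75%), and 69 of 599 and 39 of 652 T cells (11.5% and 5.98%).

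**Figure D5:**
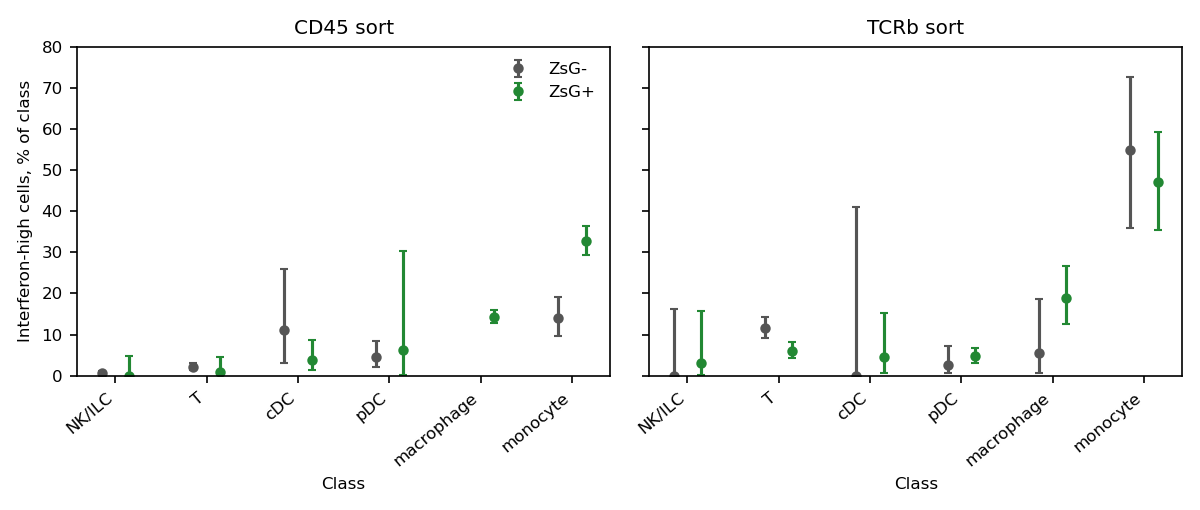
Share of interferon-high cells (at least 14 of the 37 genes after thinning to 2000 UMIs, in percent) in each class and gate of the CD45 sort and the TCRb sort, with exact 95% binomial intervals; the single ZsG- macrophage of the CD45 sort is not drawn. Monocytes have the highest shares in both sorts, 32.8% in the ZsG+ gate of the CD45 sort.

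The ligands themselves were rare. *Ifnb1*, which encodes interferon-beta, had 238 UMIs in 111 cells of the CD45 sort, and the 13 *Ifna* genes together had 44 UMIs. ZsG+ monocytes held 94 *Ifnb1* UMIs in 35 of 735 cells (4.76%, 3.34 to 6.56), ZsG+ macrophages 79 UMIs in 41 of 1962 cells (2.09%), ZsG- monocytes 6 UMIs in 5 cells (2.24%) and ZsG- pDCs 2 UMIs in 1 of 196 cells. No UMI of it was seen in 2433 ZsG- NK cells, which by the limit of 3 counts for a count of 0 allows a share of up to 0.123% of cells with a UMI, or in 1198 ZsG- T cells, which allows up to 0.25% by the same limit. Medians of 4568 and 8247 UMIs in those classes compare with 6846 in ZsG+ monocytes. In the TCRb sort, ZsG+ pDCs held 48 *Ifnb1* UMIs in 8 of 592 cells (1.35%), 38 of them in 1 cell. ZsG+ macrophages of that sort held 16 UMIs in 5 of 131 cells (3.82%), and its 72 ZsG+ monocytes held none, which allows up to 4.17%. Within ZsG+ monocytes of the CD45 sort, 16 of the 35 cells with *Ifnb1* were interferon-high (45.7%, 28.8 to 63.4), against 32.8% of the whole class, which lies inside that interval. Within ZsG+ macrophages 6 of 41 were (14.6%, 5.57 to 29.2), against 14.2% of the class. In all, 32 of 111 such cells were interferon-high in the CD45 sort (28.8%), against 8.76% of all cells and 16.2% of ZsG+ cells. In the TCRb sort 3 of 20 were (15%), against 9.90% of all cells and 9.41% of ZsG+ cells. These pooled shares mix classes. *Ifng*, the type II interferon, was in contrast counted 14398 times in 1255 cells of the CD45 sort. Of these UMIs, 10634 were in ZsG- T cells, at 600 CPM, and 679 in ZsG+ T cells.

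The receptor and other genes of the pathway, given from a list beside the 39, split both ways between the gates. *Ifnar1* and *Ifnar2* were highest in pDCs, at 237 and 436 CPM in the ZsG- gate, and stood at 71.0 and 168 CPM in ZsG+ monocytes. *Irf8*, the lineage factor of pDCs and DC1, was at 3533 CPM in ZsG- pDCs. Of 30 pathway genes with enough UMIs in monocytes of the CD45 sort, 5 were at least 2-fold higher in ZsG+ cells and 5 at least 2-fold lower, with a median log2 ratio of -0.10, against the 8.74% and 8.89% of all genes given above. In classical monocytes alone 5 of 30 were at least 2-fold higher and 3 lower, against 9.45% and 7.85%. Over all monocytes, the 5 higher genes were *Ifnb1* and 4 genes known mainly as targets of interferon-gamma: *Cxcl9*, a chemokine for T cells, was at 987 and 2443 CPM, *Gbp2* at 679 and 1842 CPM, *Iigp1* at 65.9 and 292 CPM and *Ciita* at 62.7 and 134 CPM. *Irgm1*, another such target, was lower, at 282 and 149 CPM. The 5 lower genes were *Irf1*, the brakes *Socs1* and *Socs3*, the receptor gene *Ifngr1* and *Tlr7*. *Cxcl10*, a chemokine that both kinds of interferon induce, was also lower, at 6392 and 3886 CPM, beside *Irf1* at 1396 and 676 CPM and *Socs3* at 1182 and 546 CPM. In macrophages of the TCRb sort 3 of 28 pathway genes were at least 2-fold higher in ZsG+ cells and none 2-fold lower, against 3.84% and 1.59% of all genes.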

How the data were processed

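The 4 single-cell libraries came 1 from each group. The deposited values are UMI counts per gene and cell, which the authors made with Cell Ranger (7.0.0 in the header of the CD45 matrix, 6.1.2 in the header of the TCRb matrix and in the study's methods) against mm10, joining the libraries of a sort. Nothing read here states whether depth was evened in that step. The columns of gene and barcode names that come with the matrices (deposited as text, neither a signal nor a score) only name rows and cells. The 39 genes and the other lists were chosen with earlier results of these data known.

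Cells with 1000 to 6000 genes and under 10% mitochondrial UMIs (CD45 sort), or 50 to 6000 genes and under 15% (TCRb sort), were kept, with genes seen in at least 3 cells. These limits are the study's, but its further removal of TCRb-sort cells with under 0.055% CD3 UMIs was used only as an alternative for T cells. Classes needed a minimum number of marker genes with a UMI (5 for NK, T and macrophage, 4 for monocyte and cDC, 7 for pDC), set after marker counts, but not values of the 39 genes, had been seen. Such gates depend on depth. Cells with markers of several lineages (63 and 222 in the CD45 sort, 15 and 78 in the TCRb sort) were set aside, and no doublet caller was run. Ratios of single genes had 0.5 added to each sum and needed 20 UMIs over both sides, so a gene could pass through 1 side alone. The genes named were those with the most UMIs, the largest differences in each direction in each class, and those of each role group. The interferon-high score used 37 genes, not the 39 planned. Scripts were tested on simulated data. Exact intervals came from scipy 1.17.1 and tables from pandas 2.3.3, under Python 3.11.15 with numpy 2.4.6. TMM factors, the only use of edgeR (4.0.16), were computed in R 4.3.3. Alternatives covered scaling, weighting of cells, depth, cell filters, gates and the genes summed. The sequences are from the RefSeq promoter table of build GRCm38.p6.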

Additional observations from a re-analysis of the deposited data

Results flagged for a closer look

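Within 1 sort the log2 ratios of the summed genes between the ZsG gates had opposite signs in different classes, with intervals on opposite sides of 0. These intervals cover counting error only, so they do not establish that the gate difference varies by class. In the CD45 sort the ratio was 0.65 in monocytes and -0.32 in cDCs. After thinning to 2000 UMIs the cDC ratio was -0.037 (-0.21 to 0.14), so that its interval held 0. In the TCRb sort it was -0.28 in T cells, 0.35 in macrophages and 0.21 in pDCs. These differences between classes were not tested, since each gate was 1 library, and in the TCRb sort all 3 signs turn with the opposite assignment of the barcode suffixes. With the assignment used, *Foxp3*+ cells were 15.2% of ZsG+ and 5.18% of ZsG- T cells, beside 12.4% and 3.51% in the CD45 sort. The pDCs went the other way, with 592 ZsG+ and 120 ZsG- cells, beside 16 and 196 in the CD45 sort.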

How the results depend on the processing

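No paired analysis was possible because each group is 1 library. Of 118 values of the main results under an alternative, 51 stayed within counting error, 59 moved beyond it and 8 changed the sign of a ratio whose interval had lain off 0; of 160 other levels and shares, 79 stayed and 81 moved. Such signs turned in T cells of the CD45 sort (-0.07) with per-cell means (0.041), thinning (0.014) and no cell filter (0.12), in TCRb monocytes with thinning (0.018), and in the whole TCRb sort with opposite suffixes (T 0.28, pDC -0.21, monocyte 0.049, macrophage -0.35). TCRb classical monocytes alone, which were not among these alternatives, were also slightly higher in the ZsG+ gate (16217 against 15966 CPM).
The CD45 monocyte ratio moved to 0.60 without mitochondrial and ribosomal genes in the totals, 0.75 with TMM factors, 0.77 with per-cell means, 0.78 after thinning, 0.73 with the stricter gate and 0.56 without the 3 genes with the most UMIs, and to 0.53 and 0.51 in classical and non-classical monocytes. NK cells moved to 0.20 with per-cell means, 0.26 after thinning and -0.10 without *Bst2*, *Irf7* and *Ifi27l2a*, from 0.03 with an interval that held 0. T cells moved to -0.16 with TMM factors, -0.16 without the 3 top genes, -0.18 without the named 3 and -0.13 in CD8 T cells. cDCs moved to -0.22 with TMM factors, -0.037 after thinning, -0.50 without the 3 top genes, and -0.16 and -0.53 in DC1 and DC2. pDCs moved to -0.19 with TMM factors and -0.62 at the 5% mitochondrial limit. In the TCRb sort, T cells moved to -0.11 with per-cell means, -0.15 after thinning, -0.64 without the named 3 genes, and -0.44, -0.029 and -0.16 in CD8, CD4 and *Foxp3*+ T cells. Without the named 3 genes TCRb pDCs moved to 0.082, monocytes to -0.14 and macrophages to 0.48, and macrophages to 0.44 with per-cell means and 0.55 after thinning.
Between classes, ZsG+ monocytes over ZsG- NK cells moved from 3.05 to 2.78 without mitochondrial and ribosomal genes, 2.87 without the 3 top genes and 3.12 without *Bst2* and *Irf7*. ZsG+ monocytes over ZsG+ macrophages moved to 0.62 with per-cell means, 0.75 without the 3 top genes and 0.71 without *Bst2* and *Irf7*. ZsG- pDCs over ZsG+ macrophages, at -0.00 with overlapping intervals, moved to -0.12, -0.96 and -1.02 under these 3 and to 0.14 without mitochondrial and ribosomal genes.
Interferon-high shares with the top 5% and top 20% of cells were 6.73% and 26.9% in ZsG- monocytes, 18.5% and 55.2% in ZsG+ monocytes, 6.28% and 30.1% in ZsG+ macrophages, and 1.02% and 9.69% in ZsG- pDCs. With summed UMIs as the score they were 38.2% in ZsG+ monocytes, 16.2% in macrophages and 9.69% in pDCs, and 12.6% in macrophages without *Bst2* and *Irf7*. Without thinning they were 9.42%, 17.4%, 22.6% and 0.51%. The limit was set anew for these alternatives. It was 17 genes for the top 5%, 11 for the top 20%, 27 without thinning and 13 without *Bst2* and *Irf7*. For summed UMIs it was 28 UMIs. The 16 ZsG+ pDCs had a share of 0% with the top 5%, without *Bst2* and *Irf7* and without thinning. With a minimum of 100 UMIs the median cDC gene was at -0.68 instead of -0.23. ZsG+ monocytes were above ZsG- monocytes in 6 of 6 alternatives and above macrophages in 5 of 6. The sums over subsets, and those without the named 3 genes, were chosen after seeing the data. No macrophage ratio exists in the CD45 sort, with 1 ZsG- cell. The cause of these changes was not tested.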

Other observations

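Interferon-high cells also differed in genes outside the list. Within ZsG+ macrophages of the CD45 sort, *Cxcl10* was at 3594 CPM in the 279 interferon-high cells and 1442 CPM in the 1681 others, a log2 ratio of 1.32, and *Ddx58*, which encodes the RNA sensor RIG-I, was at 118 and 33.2 CPM (1.83). *Socs1*, an inhibitor of JAK kinases, was at 243 and 104 CPM (1.23), and *Ly6c2*, a monocyte marker, at 1854 and 790 CPM (1.23). *Actb* (0.03) and *Lyz2* (-0.16) differed little, and *C1qa* was lower, at 2068 and 2746 CPM (-0.41). *Cxcl9*, mainly a target of interferon-gamma, was at 1905 and 1851 CPM (0.04). It differed elsewhere, at 2836 and 926 CPM (1.61) in 24 interferon-high and 103 other ZsG+ macrophages of the TCRb sort, and at 1778 and 852 CPM (1.06) in ZsG- monocytes of the CD45 sort.

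Interferon-high T cells of the TCRb sort also differed from other T cells: *Cxcl10* was at 932 CPM in 69 interferon-high ZsG- cells and 98.5 CPM in the 530 others, and *Gbp2* at 456 and 84.4 CPM. *Socs1* was at 247 and 105 CPM (1.23) and *Ly6c2* at 2206 and 1337 CPM (0.72). In ZsG+ T cells *Cxcl10* was at 546 and 48.1 CPM. The cells were chosen by the 37 genes, so these values are descriptions with no test. In these cells the median depth was 5173 UMIs against 5960 in the other ZsG- T cells.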
